A study of Mus musculus with 32 samples.

Results

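The genes of the colony-stimulating factors and of their receptors were followed in mouse bone marrow-derived macrophages. The 8 genes were the ligand genes Csf1, Csf2 and Csf3 and the receptor genes Csf1r, Csf2ra, Csf2rb, Csf2rb2 and Csf3r. They were chosen by name as a family, and are 8 of the 24885 gene identifiers counted. All 8 passed the filter on low counts that left 11244 genes to test. Csf3 passed it only through the groups with LPS in normal M-CSF, where it was highest. The 32 libraries, 4 in each of 8 groups, came from C57BL/6 macrophages that lacked Trem2 (Trem2–/–, T2KO in the labels, KO here) or were wild-type (WT). Each genotype was kept in low or normal M-CSF, and each of these cultures was given LPS or not. LPS was given at 10 ng/ml for 4 hours. The protocol gives overnight culture in RPMI containing LCCM at either 0.5% or 10%; reading the smaller share as low M-CSF is inferred here. The knockout is germline, so every cell type of those mice lacked the gene, and no label states if libraries within a group are separate animals or cultures. Every p below therefore measures the spread between these libraries.

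Colony-stimulating factors are secreted proteins that keep myeloid cells alive, make them divide and steer what they become. M-CSF, the product of Csf1, binds CSF1R, a receptor tyrosine kinase on which macrophages depend for survival, and macrophages take up and degrade the M-CSF they bind. GM-CSF, from Csf2, binds an alpha chain encoded by Csf2ra and signals through the beta common chain encoded by Csf2rb. Mice carry a second beta chain gene, Csf2rb2, whose product works with the interleukin-3 receptor. G-CSF, from Csf3, acts on the receptor encoded by Csf3r, best known from neutrophils and their precursors. LPS, a bacterial cell wall product sensed by TLR4, is a classical inducer of the ligand genes in macrophages.

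Libraries held between 3068863 and 15585423 counts, with a median of 5596111. Values are given as CPM, counts relative to library size, scaled by TMM, which adjusts library sizes for a few very abundant transcripts. TMM factors were 0.598 to 0.671 in KO and 0.664 to 0.752 in WT cells in low M-CSF with LPS, against 0.903 to 1.37 in the other 6 groups. All 11 macrophage markers were tested and summed to between 6406 and 15714 raw CPM per library, while lymphocyte and mast cell markers summed to at most 1.60 and 2.28 raw CPM. Trem2 was lower in KO than in WT cells in all 4 conditions, from 6.01 ± 2.31 against 332 ± 47.4 CPM in low M-CSF with LPS to 115 ± 13.9 against 460 ± 70.1 CPM in low M-CSF without LPS (SD, n = 4 each). Where the deletion lies relative to these 3′ reads is not given in the sources used here. Within groups, libraries 1 and 3, like libraries 2 and 4, were unusually alike: chi-square divided by its degrees of freedom was 4.03 to 9.50 in 14 of 16 such pairs, against 9.73 to 81.5 in the 32 other pairs. If such pairs are repeats of 1 sample, n is 2 per group, and results that missed the threshold with the pairs summed are named as such below.

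**Figure D1:**
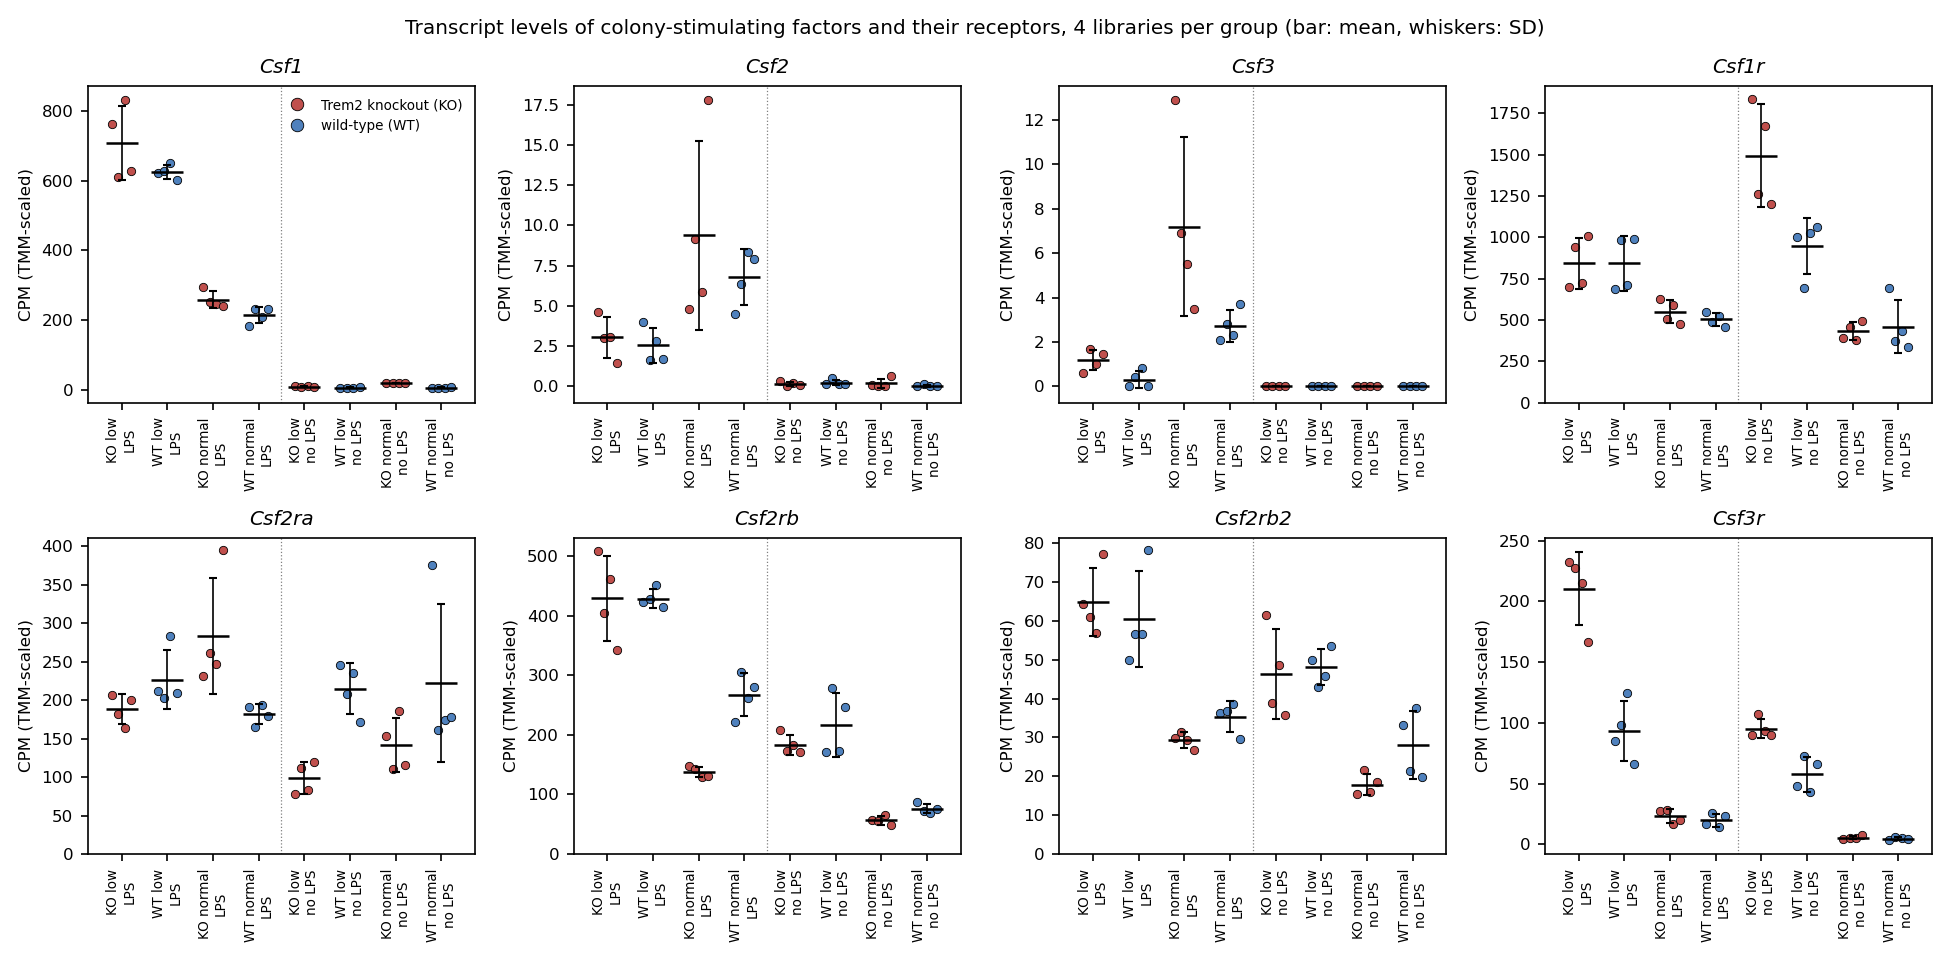
Level of each gene in CPM (TMM-scaled, vertical axes from 0, linear) in the 8 groups, with 1 point per library, a bar at the mean and whiskers for the SD (n = 4). Csf1 lies between 602 and 831 CPM in the 8 libraries in low M-CSF with LPS and at or below 19.9 CPM in the 16 libraries without LPS, and Csf3 is at 0 in all 16 of these.

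Without LPS, low M-CSF raised 4 of the 7 testable genes in KO cells and lowered 2, where 48.2% of all genes tested passed at an adjusted p below 0.05 (26.6% higher, 21.7% lower). In WT cells it raised 4 of 7, where 44.3% passed (22.4% higher, 21.9% lower). Csf3 had no count in any of these libraries. With LPS, low M-CSF raised 5 and lowered 3 of 8 in KO cells, where 59.2% of all genes passed (26.5% higher, 32.8% lower). In WT cells it raised 5 and lowered 2 of 8, where 45.6% passed (21.4% higher, 24.2% lower). LPS raised 7 and lowered 1 of 8 in KO cells in low M-CSF, where 67.5% passed (26.5% higher, 41% lower), and raised 7 of 8 in KO cells in normal M-CSF, where 42.7% passed (20.9% higher, 21.8% lower). It raised 5 of 8 in WT cells in low M-CSF, where 60.7% passed (27% higher, 33.6% lower), and 5 of 8 in normal M-CSF, where 36.1% passed (18.3% higher, 17.9% lower). With so many genes passing, a count of members says little by itself, and the sections on single genes give which moved and how far. The counts that involve LPS also include Csf3, which passed the low-count filter only through the groups where it was highest.

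Between genotypes, 1 to 4 members passed in each condition. In normal M-CSF without LPS, 1 of 7 was higher, Csf1, where 1.86% of all genes passed (0.747% higher, 1.11% lower). With LPS, 1 of 8 was lower, Csf2rb, where 4.04% passed (1.98% higher, 2.05% lower). In low M-CSF without LPS, Csf1, Csf1r and Csf3r were higher and Csf2ra was lower, 4 of 7, where 16.7% passed (7.74% higher, 8.97% lower). With LPS, 1 of 8 was higher there, Csf3r, where 19.1% passed (8.2% higher, 10.9% lower).

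Differences between differences were tested as interactions. The genotype effect differed between media for 1 of 7 members without LPS, where 4.62% of all genes passed (1.41% higher, 3.21% lower), and for 1 of 8 with LPS, where 5.49% passed (2.2% higher, 3.29% lower). The LPS response differed between genotypes for 2 of 7 in normal M-CSF, where 0.534% passed (0.329% higher, 0.205% lower). In low M-CSF edgeR called 0 of 7, with 2 at an unadjusted p under 0.05 and 1 called by DESeq2, where 16% of all genes passed (7.52% higher, 8.49% lower). The LPS response differed between media for 3 of 7 in KO cells, where 35.3% passed (13.3% higher, 22% lower), and for 4 of 7 in WT cells, where 23.6% passed (10.7% higher, 12.8% lower).

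**Figure D2:**
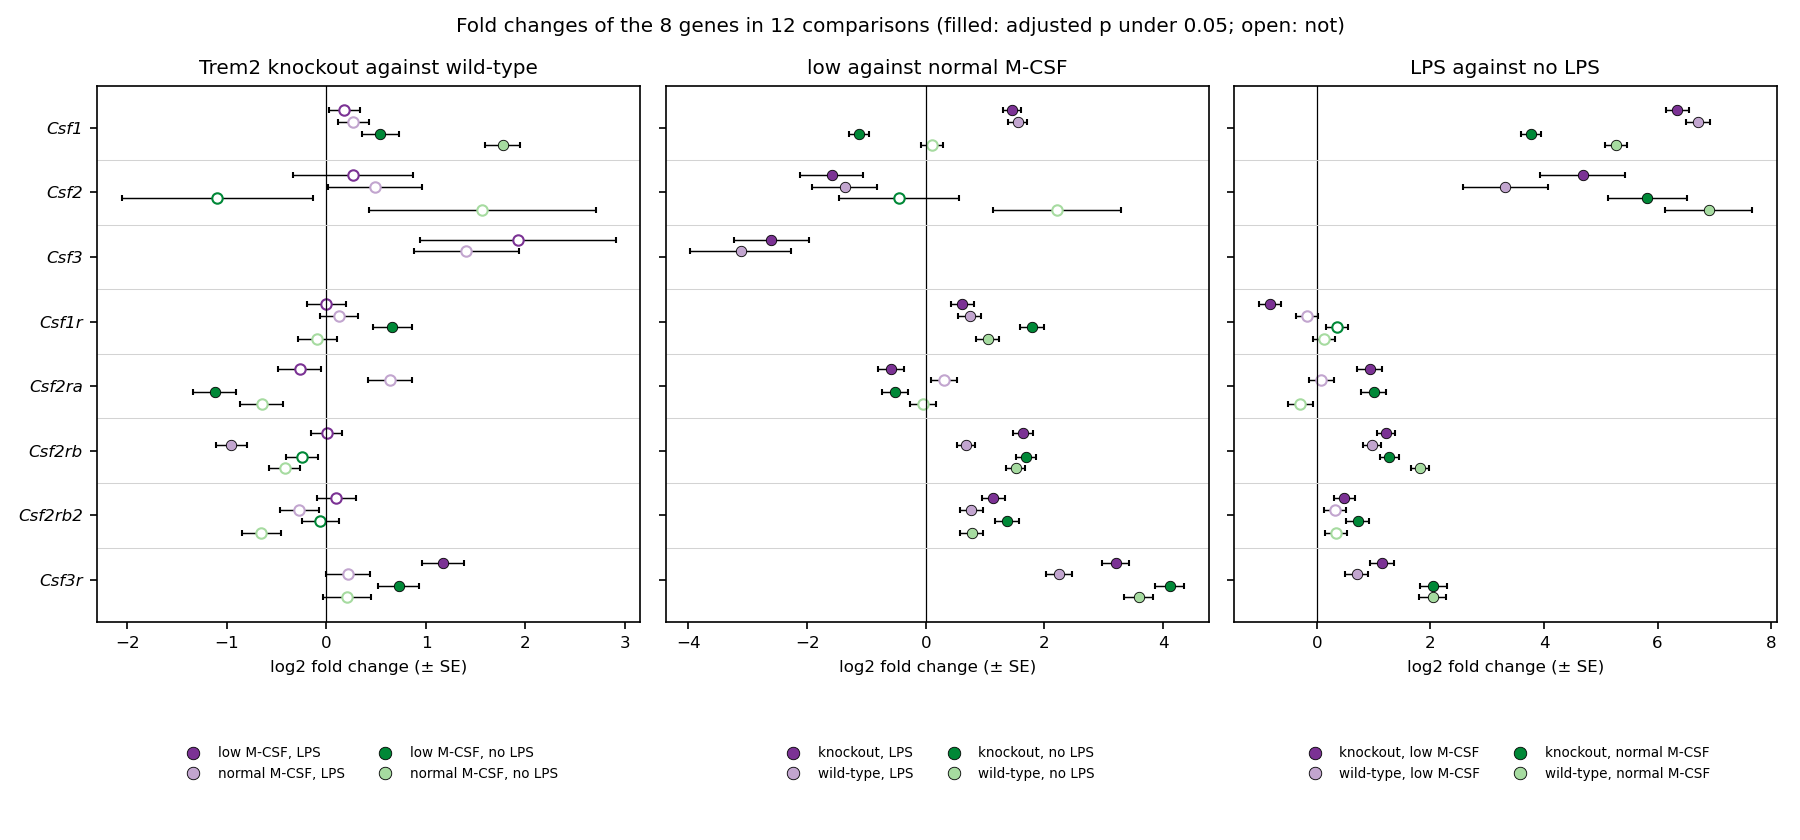
Log2 fold changes with their SE (horizontal axes) for the 8 genes in the 12 comparisons of 2 groups, filled where the adjusted p was below 0.05. Receptor genes other than Csf2ra lie right of 0 in all 4 medium comparisons, and Csf2 and Csf3 lie left of 0 in both medium comparisons with LPS. Csf3 is not drawn against groups in which it had no count.

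Csf1, the gene of M-CSF (Entrez 12977, chromosome 3, 107741048 to 107760469 in GRCm38), was induced by LPS in every genotype and medium. In low M-CSF it stood at 762, 609, 831 and 629 CPM in KO cells with LPS, against 10.0, 6.47, 9.54 and 8.96 CPM in KO cells without. In WT cells in low M-CSF it stood at 622, 629, 650 and 602 CPM with LPS, against 4.85, 5.38, 4.96 and 8.90 CPM without. The groups lay far apart, by a ratio of means of 80.9 in KO and 104 in WT cells. The log2 fold changes were 6.35 (SE 0.20, edgeR adjusted p = 1.8e-25) in KO and 6.71 (SE 0.20, adjusted p = 1.5e-25) in WT cells. In normal M-CSF the level with LPS was lower, at 295, 251, 247 and 241 CPM in KO cells and 184, 231, 209 and 233 CPM in WT cells. The ratio to cells without LPS was 13.6 in KO cells (log2 fold change 3.76, SE 0.18) and 38.3 in WT cells (5.27, SE 0.19), both past the threshold.

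Without LPS, Csf1 was 3.40-fold higher in KO than in WT cells in normal M-CSF. It stood at 19.9, 18.2, 19.6 and 18.3 CPM in KO cells, from 118 to 237 counts, against 5.13, 5.10, 5.81 and 6.33 CPM in WT cells, from 45 to 84 counts. The groups did not overlap, and the log2 fold change was 1.77 (SE 0.17, edgeR adjusted p = 7.0e-09). It passed under every alternative run, the summed pairs included, and stayed between 1.73 and 1.83 when any 1 library was left out. In low M-CSF the values above gave KO cells 8.75 ± 1.58 CPM and WT cells 6.02 ± 1.93 CPM (SD, n = 4 each), and the groups overlapped. That log2 fold change of 0.54 (SE 0.18) had an edgeR adjusted p = 0.035, and the call was lost on leaving out any of 6 of the 8 libraries (KO libraries 1, 3 and 4, WT libraries 1, 2 and 3) and with the pairs summed (adjusted p = 0.27). The call was also lost with RLE size factors (0.056), without the low-count filter (0.074) and in a fit of these 2 groups alone (0.23). The genotype difference was smaller in low than in normal M-CSF by 1.23 on the log2 scale (SE 0.25, adjusted p = 0.0016; 0.21 with the pairs summed).

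The medium moved Csf1 in opposite directions without and with LPS in KO cells. Without LPS it fell to 8.75 ± 1.58 CPM in low M-CSF, against 19.0 ± 0.870 CPM in normal M-CSF (log2 fold change -1.13, SE 0.17). In WT cells the corresponding levels were 6.02 ± 1.93 and 5.59 ± 0.591 CPM, a log2 fold change of 0.10 (SE 0.19) that did not pass. With LPS, low M-CSF raised Csf1 2.74-fold in KO and 2.92-fold in WT cells. The LPS response was therefore larger in low than in normal M-CSF, by 2.58 on the log2 scale in KO cells (SE 0.23, adjusted p = 1.5e-10) and by 1.44 in WT cells (SE 0.24, adjusted p = 3.5e-05). In normal M-CSF the LPS response was smaller in KO than in WT cells by 1.5 on the log2 scale (SE 0.23, adjusted p = 0.00086). Levels after LPS did not pass between genotypes, at 259 ± 24.8 CPM in KO and 214 ± 23.1 CPM in WT cells in normal M-CSF (adjusted p = 0.41). With the pairs summed this interaction kept its size, at -1.54 (SE 0.37), but had an adjusted p = 0.87. The order of levels over the 8 groups was clear of overlap between neighbours except at both ends: the low M-CSF groups with LPS overlapped, and so did the lowest 3 groups.

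The promoter of Csf1 is shown as an example of a gene that LPS induced in all 4 settings. Csf2, Csf2rb and Csf3r were also called higher in each, as was Csf3 on few reads. The window covers the 250 bases before the annotated start, on the minus strand of chr3:107760470-107760719, and was read from the RefSeq promoter table for GRCm38.p6. No annotated exon lies in it. Capitals mark the 3 matches to the NF-kB motif (GGGA, any 4 bases, CC) on either strand, of which the 2 nearer the start overlap in 1 run of 11 bases:
Csf1 promoter: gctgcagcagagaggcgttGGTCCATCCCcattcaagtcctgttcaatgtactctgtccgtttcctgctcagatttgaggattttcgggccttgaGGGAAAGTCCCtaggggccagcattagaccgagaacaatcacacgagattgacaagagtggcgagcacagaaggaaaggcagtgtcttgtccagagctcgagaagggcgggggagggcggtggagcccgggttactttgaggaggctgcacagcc
The motif occurs at least once in 17.6% of 32851 promoters of the same length, so a match is common. On either strand, the window held no match to the AP-1 motif TGANTCA (6.75% of promoters), the C/EBP motif TTGCNNAA (9.56%), the PU.1 motif GAGGAA (23.3%) or the TATA motif TATAAA (12.4%). The Csf2 window held 1 C/EBP match and no NF-kB match. That of Csf3r, which overlaps an annotated Csf3r exon, held 1 NF-kB match and 1 PU.1 match. No window was available for Csf3 or Csf2rb.

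Csf2, the gene of GM-CSF (Entrez 12981, chromosome 11, 54247270 to 54249899), and Csf3, the gene of G-CSF (Entrez 12985, chromosome 11, 98700183 to 98703631), had few reads and appeared almost only after LPS. The 3′ untranslated regions (UTRs) of both are dense in ATTTA, the core of the AU-rich elements through which proteins such as tristetraprolin (Zfp36) speed the decay of cytokine mRNA. From the reference transcripts, the Csf2 UTR of 317 bases held 9 copies, or 28.4 per kb, a density reached by 0.0639% of the 20331 genes with an annotated 3′ UTR. That of Csf3 held 6 copies in 669 bases (8.97 per kb, reached by 1.79%), and that of Csf1 held 4 in 2111 bases (1.89 per kb, reached by 37% of genes). The stretch of 30 bases with the most copies is given for each ligand, with ATTTA in capitals:
Csf2 3′ UTR: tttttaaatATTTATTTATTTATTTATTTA
Csf3 3′ UTR: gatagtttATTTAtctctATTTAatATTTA
Csf1 3′ UTR: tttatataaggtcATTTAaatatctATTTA
Among the receptor genes, Csf1r held 3 copies in 1669 bases, and Csf2ra, Csf2rb, Csf2rb2 and Csf3r held 0.

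In normal M-CSF with LPS, Csf2 stood at 4.81, 9.15, 5.85 and 17.8 CPM in KO cells (22 to 107 counts) and at 4.5, 6.36, 8.34 and 7.92 CPM in WT cells (32 to 54 counts). Without LPS at most 4 reads were counted in any library. Over the 4 libraries pooled, LPS gave 216 against 5 counts in KO cells, a ratio of raw CPM of 45.4 (95% interval 19.2 to 141), and 185 against 2 counts in WT cells, a ratio of 114 (31.2 to 951). These exact intervals cover counting error only, and not the spread between the 4 libraries that were pooled. Reads amplified by PCR are not separate molecules, so even the counting error may be larger. In low M-CSF the same ratios were 16.5 (6.49 to 53.6) in KO cells, from 39 against 5 counts, and 6.29 (2.67 to 17.1) in WT cells, from 27 against 7 counts. All 4 LPS comparisons of Csf2 passed, with edgeR adjusted p from 1.5e-09 to 0.00025.

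Low M-CSF lowered Csf2 after LPS, the opposite of Csf1. KO cells had 4.63, 3.0, 3.07 and 1.46 CPM in low M-CSF, all below the 4 values in normal M-CSF. WT cells had 3.98, 1.65, 2.83 and 1.71 CPM in low M-CSF, also all below the 4 in normal. The log2 fold change was -1.59 in KO cells (SE 0.53, edgeR adjusted p = 0.0097) and -1.37 in WT cells (SE 0.55, adjusted p = 0.041). The KO call was lost without KO library 4 in normal M-CSF with LPS (-1.05, adjusted p = 0.11). The WT call was lost on leaving out any of 6 of the 8 libraries (adjusted p up to 0.10) and with the pairs summed (0.16). It was also lost with RLE size factors (0.061), with DESeq2 (0.057) and with a replicate block in the model (0.053). In WT cells the LPS response was smaller in low than in normal M-CSF by 3.58 on the log2 scale (SE 1.24, adjusted p = 0.032), from the 2 counts of the untreated normal group, and the call was lost without library 2 of low M-CSF (0.17) or libraries 1, 3 or 4 of normal M-CSF (0.050 to 0.064), all without LPS, and with the pairs summed (0.13). Genotype did not pass for Csf2 in any of the 4 conditions.

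Csf3 had no read in any of the 16 libraries without LPS. A count of 0 over the 4 libraries of a group allows up to 3 reads in that group. In normal M-CSF with LPS it stood at 12.9, 6.92, 5.50 and 3.49 CPM in KO cells (59, 28, 47 and 21 counts) and at 2.08, 2.83, 2.31 and 3.71 CPM in WT cells (24, 24, 13 and 15 counts). Against 3 counts over each whole untreated group, the pooled level with LPS was at least 54.3-fold higher in KO and at least 31.3-fold higher in WT cells. The exact 95% lower limits of these ratios, which also take in the counting error of the reads with LPS, were lower, at 43.6 in KO and 24.9 in WT cells. In low M-CSF with LPS, KO cells had 2, 5, 4 and 3 counts, at least 9.86-fold higher than without LPS against the same floor (exact 95% lower limit 7.01), and WT cells had 0, 1, 2 and 0 counts, at the level that a count of 0 allows, so no fold is given. The edgeR test of those 3 reads passed (adjusted p = 0.031), but the call was lost without library 2 (0.062) or 3 (0.16) with LPS, without library 1 without LPS (0.051) and with total-count scaling (0.056). Low M-CSF lowered Csf3 after LPS with a log2 fold change of -2.60 in KO cells (SE 0.62, edgeR adjusted p = 0.00091) and -3.12 in WT cells (SE 0.85, adjusted p = 0.0041), again with no overlap between the groups. In WT cells the pooled ratio, low to normal M-CSF, was 0.0825 (95% interval 0.0166 to 0.250), from 3 against 76 counts. Because Csf3 passed the low-count filter only through the groups with LPS in normal M-CSF, its edgeR p values are descriptive. KO cells had more Csf3 than WT cells on average in normal M-CSF with LPS, by 1.40 on the log2 scale (SE 0.53), but the libraries overlapped and the adjusted p was 0.15 (0.041 in a fit of these 2 groups alone).

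Csf1r, the gene of the M-CSF receptor (Entrez 12978, chromosome 18, 61105572 to 61131139), was highest in KO cells in low M-CSF without LPS. It stood there at 1838, 1264, 1674 and 1200 CPM, against 1001, 693, 1024 and 1060 CPM in WT cells. In normal M-CSF without LPS it stood at 393, 460, 377 and 493 CPM in KO cells and at 693, 371, 435 and 336 CPM in WT cells, and these overlapped. Low M-CSF raised it 3.47-fold in KO cells (log2 fold change 1.79, SE 0.20) and 2.06-fold in WT cells (1.04, SE 0.20), each with no overlap. The genotype difference in low M-CSF was 0.66 on the log2 scale (SE 0.19, edgeR adjusted p = 0.015). It was lost without KO library 1 (adjusted p = 0.072), without WT library 2 (0.085) and with the pairs summed (0.23). LPS lowered Csf1r in KO cells in low M-CSF, to 842 ± 154 CPM, against 1494 ± 311 CPM without LPS (log2 fold change -0.83, SE 0.19, adjusted p = 0.00033). In the other 3 LPS comparisons the log2 fold changes, from -0.17 to 0.35, did not pass. With total-count scaling that in WT cells in low M-CSF passed as lower (-0.92, adjusted p = 0.00021), and in a fit of the 2 groups alone that in KO cells in normal M-CSF passed as higher (0.37, adjusted p = 0.037). The LPS response in KO cells differed between media by -1.18 (SE 0.27, adjusted p = 0.0011; 0.069 with the pairs summed), and by -0.30 (SE 0.27) in WT cells, which did not pass. With LPS, low M-CSF raised Csf1r 1.53-fold in KO and 1.67-fold in WT cells, calls that were lost with the pairs summed (0.076 in KO, 0.064 in WT) and with total-count scaling. After LPS the genotypes lay at 842 ± 154 CPM in KO and 842 ± 166 CPM in WT cells in low M-CSF.

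Csf2ra, the gene of the GM-CSF receptor alpha chain (Entrez 12982, chromosome 19, 61217191 to 61228461), had groups that overlapped with every neighbour in the order of the 8 levels, as did those of Csf2rb2. It was lower in KO cells in low M-CSF without LPS, at 78.4, 112, 82.8 and 120.0 CPM, against 245, 208, 235 and 171 CPM in WT cells (log2 fold change -1.12, SE 0.22, edgeR adjusted p = 0.00025). These groups did not overlap, and the call held with the pairs summed and without any 1 library. In normal M-CSF without LPS KO cells had 154, 111, 186 and 116 CPM and WT cells 375, 162, 174 and 178 CPM, which overlapped and did not pass (adjusted p = 0.13). In normal M-CSF with LPS the difference ran the other way, at 283 ± 75.7 CPM in KO and 182 ± 13.2 CPM in WT cells. Those groups did not overlap, but the log2 fold change of 0.64 (SE 0.22) had an adjusted p = 0.093 (0.023 in a fit of these 2 groups alone). LPS raised Csf2ra in KO cells, 1.91-fold in low and 2.0-fold in normal M-CSF, with no overlap in either, but with total-count scaling the log2 fold changes were -0.0072 in low and 0.47 in normal M-CSF and neither passed. In WT cells it gave fold changes on the log2 scale of 0.08 (SE 0.22) in low and -0.29 (SE 0.22) in normal M-CSF, neither of which passed, while with total-count scaling both passed as lower, at -0.69 (adjusted p = 0.0048) in low and -0.72 (0.0055) in normal M-CSF. The difference between the genotypes in this response was 1.29 in normal M-CSF (SE 0.31, adjusted p = 0.040). It was lost on leaving out any of 10 of the 16 libraries (adjusted p up to 0.16, without WT library 1 in normal M-CSF without LPS, which held the 375 CPM) and with the pairs summed. It was also lost in a fit of the compared groups only (0.062) and with a replicate block in the model (0.050). In low M-CSF the difference was 0.85 (SE 0.31, adjusted p = 0.053). There it passed with RLE size factors (0.034), DESeq2 (0.021), no low-count filter (0.048) and a fit of the compared groups only (0.035). It did not pass with a replicate block or with the pairs summed. Low M-CSF lowered Csf2ra in KO cells by 0.52 without LPS (SE 0.22, adjusted p = 0.045) and by 0.59 with LPS (SE 0.22, adjusted p = 0.020) on the log2 scale. The first call was lost without KO libraries 1, 2 or 3 in low or 1 or 3 in normal M-CSF (adjusted p up to 0.25). The second was lost without KO library 3 in low (0.068) or 4 in normal M-CSF (0.16), and both were lost with the pairs summed. The first was also lost without the low-count filter (0.052) and with a replicate block in the model (0.060). The second was also lost with RLE size factors (0.10) and with DESeq2 (0.10).

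Csf2rb, the gene of the beta common chain (Entrez 12983, chromosome 15, 78325800 to 78351001), was raised both by low M-CSF and by LPS in every setting, though with total-count scaling the LPS calls in low M-CSF were lost in both genotypes. KO cells had 508, 404, 461 and 342 CPM in low M-CSF with LPS, against 207, 173, 182 and 170.5 CPM without LPS. WT cells had 422, 427, 450 and 414 CPM with LPS there, against 171, 278, 173 and 246 CPM without. In normal M-CSF KO cells had 148, 143, 129 and 132 CPM with LPS, against 56.4, 56.0, 66.0 and 48.5 CPM without. WT cells had 221, 306, 262 and 280 CPM with LPS there, against 86.9, 71.8, 69.3 and 76.0 CPM without. None of these pairs of groups overlapped, and the log2 fold change for LPS was 1.23 and 0.98 in KO and WT cells in low M-CSF, and 1.28 and 1.81 in KO and WT cells in normal M-CSF (SE 0.16 each). In WT cells the LPS response was smaller in low than in normal M-CSF by 0.83 (SE 0.22, edgeR adjusted p = 0.0057; 0.18 with the pairs summed). Low M-CSF after LPS raised Csf2rb 3.11-fold in KO and 1.60-fold in WT cells, and the WT call was lost with the pairs summed (0.053) and with total-count scaling.

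After LPS in normal M-CSF, Csf2rb was lower in KO than in WT cells, at 138 ± 8.80 against 267 ± 35.7 CPM (log2 fold change -0.96, SE 0.16, edgeR adjusted p = 0.00020). All 4 KO libraries lay below all 4 WT libraries. In low M-CSF with LPS the genotypes had 429 ± 71.9 CPM in KO and 428 ± 15.6 CPM in WT cells, a log2 fold change of 0.00 (SE 0.16). The difference between the media in this genotype effect was 0.96 (SE 0.22, adjusted p = 0.0089; 0.34 with the pairs summed). Without LPS in normal M-CSF the 4 KO libraries also lay below the 4 WT libraries, but the log2 fold change of -0.42 (SE 0.16) had an adjusted p = 0.23. With the pairs summed, the difference after LPS kept its size at -0.97 (SE 0.26) and had an adjusted p = 0.14.

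Csf2rb2 (Entrez 12984, chromosome 15, 78282507 to 78305721) lies beside Csf2rb, and its coding sequence is identical to that of Csf2rb at 2505 of 2631 aligned bases (95.2%). In the last 500 bases of the 2 transcripts, which libraries of this kind read, the identity was 81.8%, and no window of 50 bases was shared. Reads that fell in the coding sequence, where 26.3% of such windows were shared, could still have been split between the genes. Csf2rb2 followed the medium, with 46.2 ± 11.6 CPM in low against 17.9 ± 2.75 CPM in normal M-CSF in KO cells without LPS (log2 fold change 1.37, SE 0.19). In WT cells without LPS it had 48.1 ± 4.67 CPM in low against 28.0 ± 8.71 CPM in normal M-CSF (0.77, SE 0.19, edgeR adjusted p = 0.0011). With LPS, low M-CSF raised it by 1.14 (SE 0.20) in KO and 0.77 (SE 0.19) in WT cells on the log2 scale, the WT call being lost with total-count scaling (0.31, adjusted p = 0.22). LPS raised it in KO cells by 0.49 (SE 0.19, adjusted p = 0.024) in low and 0.72 (SE 0.20, adjusted p = 0.0031) in normal M-CSF, but with total-count scaling the first was -0.46 and the second 0.19. Both calls were lost with the pairs summed, and that in low M-CSF also without KO library 4 with LPS or libraries 2 or 4 without. The call in low M-CSF was also lost when no low-count filter was used (adjusted p = 0.068). In WT cells the fold changes for LPS, 0.33 and 0.34, did not pass.

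Csf3r, the gene of the G-CSF receptor (Entrez 12986, chromosome 4, 126023441 to 126044975), rose most with low M-CSF among the 8, by log2 fold change, in each of the 4 medium comparisons. KO cells without LPS had 90.4, 107, 93.7 and 90.2 CPM in low M-CSF (595 to 1662 counts), against 4.03, 5.62, 5.14 and 7.60 CPM in normal M-CSF (37 to 62 counts). WT cells without LPS had 48.2, 72.9, 43.1 and 66.3 CPM in low M-CSF, against 3.88, 5.89, 5.05 and 4.08 CPM in normal M-CSF. The ratios of means were 17.0 in KO cells (log2 fold change 4.11, SE 0.24) and 12.2 in WT cells (3.59, SE 0.24), and each pair of groups lay far apart. LPS raised Csf3r as well, to 232.5, 228, 215 and 167 CPM in KO cells and 84.8, 98.4, 125 and 66.3 CPM in WT cells in low M-CSF, where the WT groups overlapped. With total-count scaling both of these calls were lost, at 0.19 in KO (adjusted p = 0.36) and -0.063 in WT cells (adjusted p = 0.78) on the log2 scale. In normal M-CSF it reached 27.1, 28.7, 17.1 and 19.8 CPM in KO and 16.5, 25.5, 14.0 and 23.0 CPM in WT cells with LPS. The LPS response was larger in normal M-CSF, with log2 fold changes of 2.05 (SE 0.24) in KO and 2.04 (SE 0.23) in WT cells, than in low M-CSF, with 1.14 (SE 0.21) in KO and 0.70 (SE 0.21) in WT cells. The tests of that difference passed in KO cells (-0.91, SE 0.31, edgeR adjusted p = 0.022) and in WT cells (-1.34, SE 0.31, adjusted p = 0.0017). The KO call was lost without library 2 with LPS or library 1 without LPS in normal M-CSF (0.053 and 0.057), and with the pairs summed (0.20). It was also lost with RLE size factors (-0.74, adjusted p = 0.0675) and with DESeq2 (-0.74, adjusted p = 0.062).

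In low M-CSF, KO cells had more Csf3r than WT cells both with and without LPS. With LPS the ratio was 2.25 (211 ± 30.2 against 93.6 ± 24.6 CPM, log2 fold change 1.17, SE 0.21, edgeR adjusted p = 0.00014), and without LPS it was 1.65 (95.3 ± 7.95 against 57.6 ± 14.2 CPM, 0.73, SE 0.21, adjusted p = 0.012). The groups did not overlap in either. The call with LPS held with the pairs summed and without any 1 library, while that without LPS was lost without WT library 3 (0.055) and with the pairs summed (0.17). In normal M-CSF the genotypes overlapped and did not pass, and the difference between media in the genotype effect missed the threshold with LPS (0.95, SE 0.30, adjusted p = 0.056). That difference passed with RLE size factors (0.046) and with DESeq2 (0.025), but not with the pairs summed. Neutrophil markers, of which 11 of 12 measured were tested, also moved in some of these comparisons. Their summed level was 248 to 347 raw CPM in KO and 158 to 193 raw CPM in WT cells in low M-CSF without LPS, where 8 of 11 were higher in KO cells and none lower. Of all genes tested, 7.74% were higher and 8.97% lower in that comparison. It was 108 to 126 raw CPM in KO and 101 to 137 raw CPM in WT cells in normal M-CSF without LPS. Without LPS, low M-CSF raised 8 of 11 markers in KO cells, where 26.6% of all genes were higher and 21.7% lower. In WT cells it raised 3 and lowered 1, where 44.3% of all genes passed (22.4% higher, 21.9% lower), so that count was not above the share of all genes. The median log2 fold changes over the list were 1.75 in KO and 0.33 in WT cells, beside 4.11 and 3.59 for Csf3r. With LPS in low M-CSF the sums were 251 to 375 raw CPM in KO and 217 to 258 raw CPM in WT cells, where 2 of 11 were higher in KO cells, beside 8.2% of all genes. Of the markers, S100a8, S100a9, Ltf, Ngp, Mmp8, Elane, Padi4 and Lcn2 had counts in every library. Camp was at 0 in 1 library, Mpo and Cxcr2 in 3 each and Retnlg in 8. Cxcr2, with 139 counts over all libraries, was not tested, and Ly6g was not among the genes counted. The part of the list in the Csf3r result was not tested. In bulk RNA, more cells of a type and more RNA per cell cannot be told apart.

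**Figure D3:**
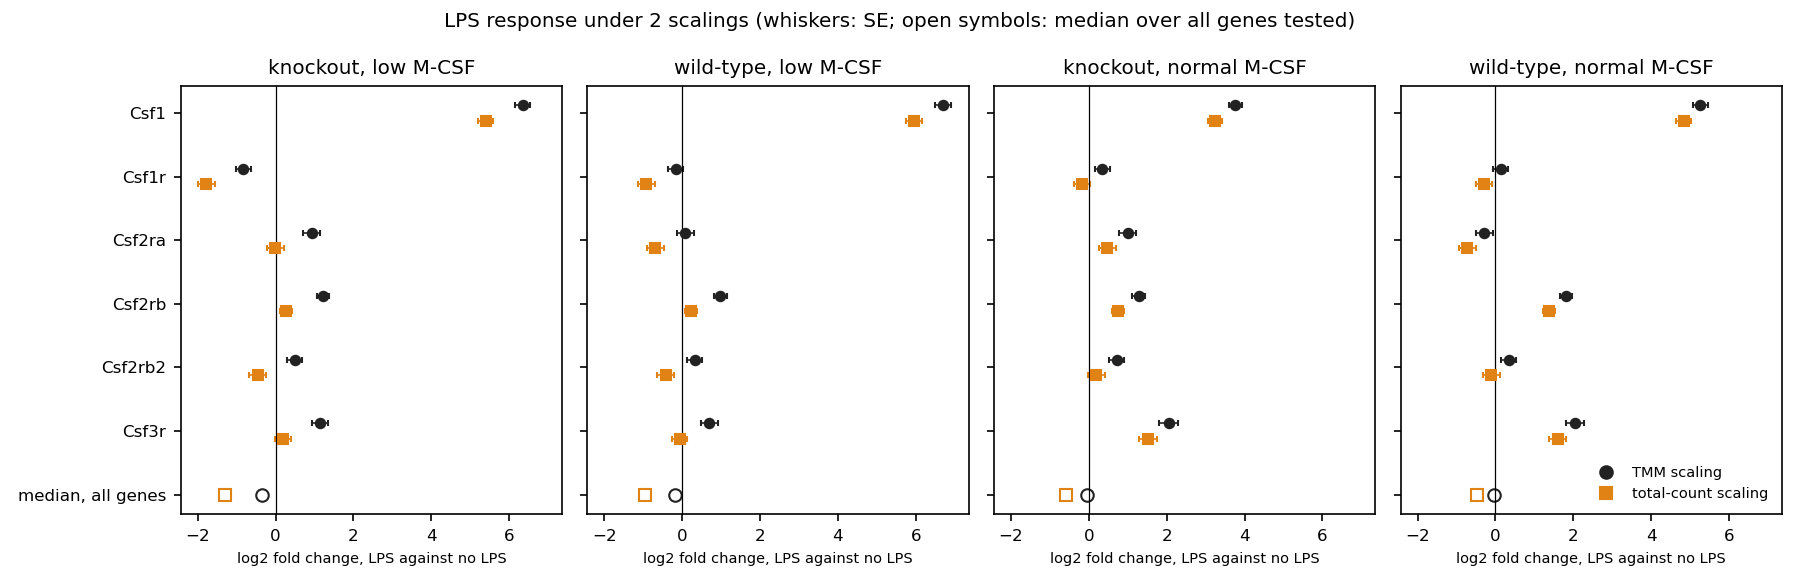
Log2 fold change for LPS (horizontal axis, whiskers SE) of 6 genes in the 4 settings, with TMM factors (circles) and with total counts only (squares), and the median over all genes (open symbols). Total-count scaling shifts every gene left, so that Csf2ra and Csf2rb2 in both genotypes and Csf3r in WT cells cross 0 in low M-CSF, as do Csf1r in both genotypes and Csf2rb2 in WT cells in normal M-CSF, while Csf1 stays at 5.40 in KO and 5.95 in WT cells.

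The direction of the small LPS effects depended on the scaling. Without TMM factors the median log2 fold change of all genes for LPS was -1.30 in KO and -0.94 in WT cells in low M-CSF, and -0.58 in KO and -0.47 in WT cells in normal M-CSF, against -0.36, -0.18, -0.053 and -0.040 with TMM. The share of calls that were higher was 17.0%, 19.0%, 19.5% and 21.5% without TMM in the same order, against 39.2%, 44.6%, 49.0% and 50.6% with it. For the medium with LPS it was 23.0% in KO and 19.3% in WT cells without TMM, against 44.7% and 46.9%. For genotype with LPS it was 22.6% in low and 26.9% in normal M-CSF, against 42.9% and 49.1% (53.2% in low M-CSF with RLE size factors). Among interactions it was 30.7% for genotype by medium with LPS (40.03% with TMM, 53.6% with RLE), 28.9% for genotype by LPS in low M-CSF (46.9%, 60.8%) and 35.4% in normal M-CSF (61.7%, 63.5%). For medium by LPS it was 16.3% in KO (37.6%, 50.4%) and 19.7% in WT cells (45.5%, 52.8%). A change of scaling shifts all genes of a comparison by nearly the same amount. Distances from the median of all genes could therefore hardly change, and they do not check the LPS results. Csf2rb in KO cells in low M-CSF stood 1.59 above that median with TMM and 1.57 above it without. Csf3r in WT cells in low M-CSF stood 0.88 above it under both scalings, and Csf1r in KO cells in low M-CSF stood at -0.47 under both. The medium and genotype effects without LPS moved little, with Csf3r at 3.97 in KO and 3.45 in WT cells for the medium without TMM.

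The partners of the receptors were described as lists. Of 22 tested genes of CSF1R ligands and signalling, low M-CSF raised 9 and lowered 3 in KO and raised 8 and lowered 2 in WT cells without LPS, near the 48.2% of all genes that passed in KO and the 44.3% in WT cells. The kinase gene Src rose in KO cells, to 1.41 ± 0.666 CPM in low against 0.116 ± 0.148 CPM in normal M-CSF. The level in normal M-CSF lay under that of 3 reads per library (0.328 to 0.632 raw CPM there). Dok2, an adaptor that dampens receptor signalling, fell to 6.57 ± 1.39 against 42.5 ± 7.21 CPM in KO cells and to 12.8 ± 2.33 against 46.6 ± 7.28 CPM in WT cells. Cbl, the ubiquitin ligase that sends activated CSF1R to degradation, rose to 338 ± 52.2 CPM in low against 139 ± 30.2 CPM in normal M-CSF in WT cells. With LPS, low M-CSF raised 12 and lowered 6 of the 22 in KO cells, beside 59.2% of all genes passing. It raised 10 and lowered 3 in WT cells, beside 45.6%. The list median was 0.77 in KO and 0.45 in WT cells there, beside -0.14 and -0.10 for all genes. LPS raised 9 and lowered 7 of the 22 in KO and raised 8 and lowered 6 in WT cells in low M-CSF, beside 67.5% of all genes passing in KO and 60.7% in WT cells. There Src reached 52.9 ± 12.9 against 1.41 ± 0.666 CPM in KO cells, and Inpp5d, the lipid phosphatase SHIP1, fell to 11.5 ± 3.79 against 160 ± 19.1 CPM. Between genotypes, 2 rose and 2 fell in low M-CSF without LPS, near the 16.7% of all genes that passed there. Fgr, a Src-family kinase, was lower there, at 0.742 ± 0.559 CPM in KO against 4.33 ± 0.781 CPM in WT cells, and Dok2 at 6.57 ± 1.39 CPM in KO against 12.8 ± 2.33 CPM in WT cells. The median of the list in that comparison was 0.02, beside 0.07 for all genes.

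Of 16 tested genes of beta common and G-CSF receptor signalling, LPS raised 12 in KO and 14 in WT cells in low M-CSF, and 13 in KO and 12 in WT cells in normal M-CSF, and lowered none. The list median was 1.73, 1.91, 1.61 and 1.44 in the same order, beside -0.36, -0.18, -0.053 and -0.040 for all genes. The shares of all genes that passed were 67.5%, 60.7%, 42.7% and 36.1%, again in that order. Socs3, the feedback inhibitor of the G-CSF receptor, had the largest fold change in both KO settings and stood at 1493 ± 324 CPM in KO cells with LPS in low M-CSF, against 5.0 ± 0.979 CPM without. Socs1, another inhibitor of cytokine receptors, stood at 333 ± 94.6 CPM with LPS against 1.09 ± 0.514 CPM without in WT cells in low M-CSF. Cish, a target of STAT5, rose to 41.7 ± 6.73 against 0.218 ± 0.180 CPM in KO and to 48.1 ± 1.19 against 0.569 ± 0.392 CPM in WT cells in normal M-CSF. Without LPS, low M-CSF raised 9 and lowered 1 in KO and raised 4 and lowered 2 in WT cells, beside 48.2% and 44.3% of all genes. Socs2 rose to 8.10 ± 2.13 against 0.768 ± 0.646 CPM in KO and to 5.44 ± 3.77 against 0.936 ± 0.531 CPM in WT cells, and the survival gene Bcl2l1 fell to 18.2 ± 5.31 against 87.0 ± 15.5 CPM in WT cells. With LPS, low M-CSF raised 9 and lowered 2 in KO and raised 10 and lowered 1 in WT cells (59.2% of all genes passed in KO and 45.6% in WT cells), with Stat5a, a transcription factor downstream of the beta common chain, at 180 ± 26.1 against 38.8 ± 11.0 CPM in KO and 209 ± 35.7 against 38.2 ± 8.17 CPM in WT cells. Genotype moved few: Jak1 was higher in KO cells in low M-CSF with LPS, at 1278 ± 80.6 CPM against 762 ± 93.8 CPM in WT cells, as was Pim1, and 4 of 16 rose in all, where 8.2% of all genes were higher.

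Of 13 tested transcription factors known to act on the receptor genes, low M-CSF without LPS raised 10 and lowered 2 in KO and raised 8 in WT cells, beside 48.2% of all genes passing in KO and 44.3% in WT cells. The list median was 0.87 in KO and 0.95 in WT cells, against 0.10 and 0.012 for all genes. Cebpa, which drives the myeloid receptor genes in progenitors, rose to 94.5 ± 23.4 against 10.7 ± 2.40 CPM in KO cells, and Irf8, which sets monocyte fate, rose to 483 ± 112 against 163 ± 27.6 CPM in WT cells. With LPS, low M-CSF raised 11 in KO and 12 in WT cells and lowered none, beside 59.2% of all genes passing in KO and 45.6% in WT cells. In KO against WT cells in low M-CSF, 3 were higher and 2 lower without LPS (7.74% and 8.97% of all genes). With LPS there, 6 were higher and 0 lower (8.2% and 10.9% of all genes). In normal M-CSF, 1 was higher and 2 lower without LPS (0.747% and 1.11%), and 3 higher and 1 lower with LPS (1.98% and 2.05%). Between genotypes without LPS, Fos fell to 15.1 ± 3.24 CPM in KO against 42.9 ± 6.95 CPM in WT cells in normal M-CSF and to 35.4 ± 4.34 against 144 ± 52.1 CPM in low M-CSF, and Klf4 to 19.8 ± 2.95 against 73.1 ± 16.2 CPM in low M-CSF. With LPS in low M-CSF both were higher in KO cells, Fos at 127 ± 68.7 against 55.5 ± 6.29 CPM and Klf4 at 72.8 ± 18.6 against 38.0 ± 6.59 CPM.

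Among 15 NF-kB genes and regulators of cytokine mRNA decay, LPS raised 12 and lowered 2 in KO and raised 11 and lowered 2 in WT cells in low M-CSF, and raised 11 and lowered 3 in KO and raised 11 and lowered 2 in WT cells in normal M-CSF. The shares of all genes passing were 67.5% in KO and 60.7% in WT cells in low M-CSF, and 42.7% in KO and 36.1% in WT cells in normal M-CSF. Nfkbiz, an inducible co-regulator of NF-kB, stood at 3268 ± 332 against 42.1 ± 3.66 CPM in KO cells in low M-CSF. Zfp36l2, which binds AU-rich elements, fell to 13.7 ± 1.60 CPM with LPS against 313 ± 30.6 CPM without in WT cells in low M-CSF. Low M-CSF without LPS raised 12 and lowered 2 in KO and raised 10 and lowered 2 in WT cells, beside 48.2% and 44.3% of all genes. Zfp36 (tristetraprolin) rose to 106 ± 10.2 against 24.7 ± 5.77 CPM in KO cells, and its relative Zfp36l1 to 994 ± 200 against 192 ± 29.6 CPM in WT cells. Of 9 genes known to respond to GM-CSF, LPS raised 6 and lowered 2 in KO and raised 5 and lowered 1 in WT cells in low M-CSF, the WT count being near the 60.7% of all genes passing there (67.5% in KO cells). After LPS the chemokine gene Ccl17 was lower in low M-CSF, at 24.8 ± 6.49 CPM in low against 116 ± 32.6 CPM in normal M-CSF in KO cells. Between genotypes 1 to 3 of the 9 were lower in KO cells in each condition and none higher, where 1.11% to 10.9% of all genes were lower, among them Pparg, at 7.18 ± 2.05 CPM in KO against 23.7 ± 7.75 CPM in WT cells in low M-CSF without LPS. Dcstamp, needed for cell fusion, was also lower there, at 0.159 ± 0.203 CPM in KO against 3.01 ± 1.16 CPM in WT cells. The KO level lay under that of 3 reads per library (0.192 to 0.562 raw CPM).

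**Figure D4:**
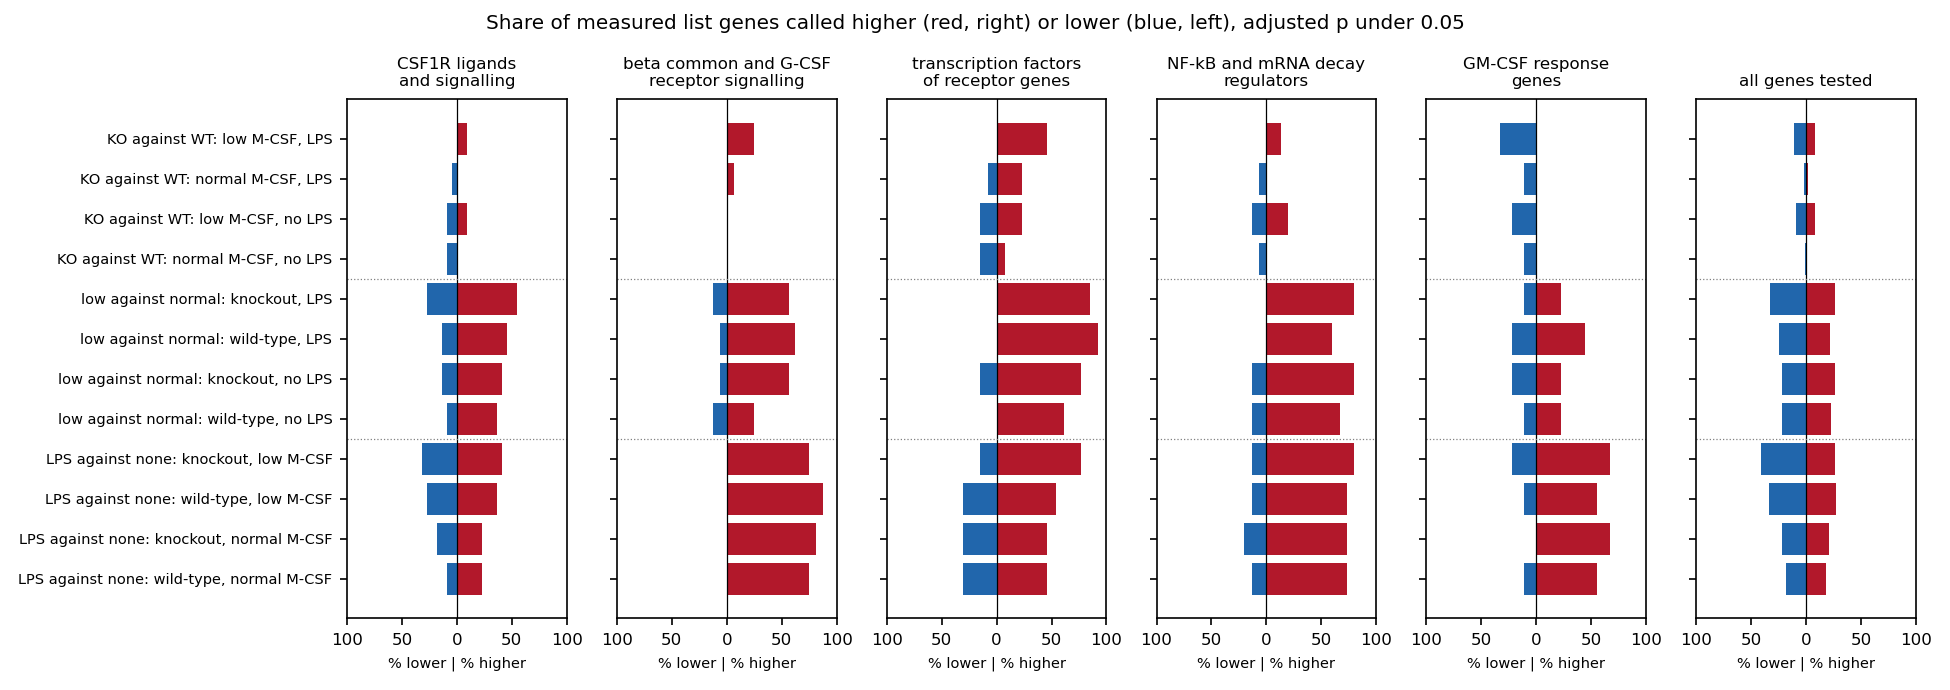
Share of the tested genes of each list called higher (right, red) or lower (left, blue) at an adjusted p below 0.05, in percent on the horizontal axis, for the 12 comparisons of 2 groups, with all genes tested at the right. Genes of beta common and G-CSF receptor signalling have no bar on the lower side in the 4 LPS comparisons.

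The genes whose levels ran most like each member over the 32 libraries are given as a description, by Pearson r of log2(CPM + 1). These points share the 8 groups and the scaling, so r mostly reflects differences between groups. For Csf1 they were Cemip2 (r = 0.99), Cxcl11 (0.98) and Marcksl1 (0.98), for Csf2 Ccl17 (0.95), Gm13889 (0.93) and Ifit1bl2 (0.92), and for Csf3 Osm (0.90), A1cf (0.87) and Grap (0.87). For Csf1r they were Scarb2 (0.94), Psap (0.93) and Sidt2 (0.93). For Csf2rb they were Skil (0.96), Pou2f2 (0.96) and Grk3 (0.95), for Csf2rb2 Picalm (0.93), Arrdc4 (0.89) and Bcl2l11 (0.88), and for Csf3r Tcf4 (0.98), Bcl2l11 (0.96) and Spic (0.95). Csf2ra had no close neighbour, with S100a11 at 0.73, Pcdh7 at 0.72 and Cox15 at 0.72.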

How the data were processed

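PolyA RNA of 32 libraries was profiled; per the labels' protocols, cDNA was primed with barcoded oligo-dT, pooled by Actb qPCR values and amplified for 12 cycles into strand-specific libraries, and no molecular identifiers are mentioned. The deposited table holds raw counts per Entrez gene, which the authors did not normalise. The submitters' processing notes name STAR, HTSeq, DESeq2 and mm10. The strand setting of the counting is not given in the sources used here, and Csf1 (Gm40121), Csf2 (Gm12223), Csf3 (Gm38985), Csf1r (Gm52352, Mir6983), Csf3r (Gm32908), Csf2rb (Mir7676-2) and Csf2rb2 (Mir7676-1) overlap other annotated genes, whose reads may be included. Columns were assigned to groups by sample title. Symbols came from the reference annotation (96.3% of identifiers, 99.5% of counts).

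A single edgeR 4.0.16 model (R 4.3.3) took all 8 groups, with TMM factors and filterByExpr (minimum count 10), and tested by the two-sided quasi-likelihood F test, adjusted by Benjamini-Hochberg over 11244 genes, at a threshold of 0.05. There were 12 comparisons of 2 groups and 6 interactions. For the low genes Csf2 and Csf3, pooled ratios with exact 95% intervals are given for some comparisons. Csf3 against groups with no count is given against a floor of 3 counts per group, with the exact 95% lower limit. Their edgeR log2 fold changes are also printed, some of them from groups with at most 3 counts. The method was tested on simulated data. Alternatives were RLE size factors, no filter, DESeq2 1.42.0, a replicate block, fits of the compared groups only, summed library pairs and leaving out each library; scaling by total counts was added after the data were seen. Promoter windows and transcript ends were read from the RefSeq promoter table and the reference transcripts. Named genes were all 8 members, the 2 genes of each list with the largest absolute fold change among those passing in a comparison (not all are printed; Dok2 and Pim1 are named again beside others), the 3 nearest patterns of each member, and Trem2. Members and lists were chosen with earlier results of these data known.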

Additional observations from a re-analysis of the deposited data

Results flagged for a closer look

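In 7 of the 64 combinations of a gene and a group, 1 library lay far from the other 3 (its gap to the nearest exceeded Dixon's 95% critical share of the range, which chance gives in about 1 group in 20). Csf1 in WT cells in low M-CSF without LPS reached 8.90 CPM in 1 library, against 4.85 to 5.38 CPM in the others. Csf1r in the same group was at 693 CPM in 1 library, against 1001 to 1060 CPM. Csf2ra reached 284 CPM in 1 WT library in low M-CSF with LPS, against 203 to 211 CPM, and 375 CPM in 1 WT library in normal M-CSF without LPS, against 162 to 178 CPM. Csf2 without LPS was flagged at 0.620 CPM in KO cells in normal M-CSF, 0.512 CPM in WT cells in low M-CSF and 0.122 CPM in WT cells in normal M-CSF, each from at most 4 reads. The groups of Csf3 without LPS, at 0 in every library, are among the 64 but could not be flagged.

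Of the 48 combinations of a gene and an interaction, 11 passed. These 48 include those of Csf3 with groups that had no count, where no test was possible. Csf3 could be tested only for genotype by medium with LPS. On the log2 scale, the genotype effect differed between media, low minus normal M-CSF, for Csf1 without LPS (-1.23) and for Csf2rb with LPS (0.96). The LPS response in normal M-CSF differed between genotypes, KO minus WT, for Csf1 (-1.5) and Csf2ra (1.29). The LPS response differed between media, low minus normal M-CSF, in WT cells for Csf1 (1.44), Csf2 (-3.58), Csf2rb (-0.83) and Csf3r (-1.34), and in KO cells for Csf1 (2.58), Csf1r (-1.18) and Csf3r (-0.91).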

How the results depend on the processing

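Of the 57 member calls in comparisons of 2 groups, 54 held with RLE size factors, 54 without the low-count filter, 55 with DESeq2, 44 with total-count scaling, 45 with the pairs summed and 48 on leaving out any 1 library. Fits of the compared groups only held 51 of the 52 calls they could test, since their filter removed some low genes. Of the 11 interaction calls, 3 held with the pairs summed and 8 on leaving out any 1 library. With total-count scaling, 4 fold changes that passed under either scaling changed sign, all for LPS in low M-CSF: Csf2ra (-0.0072) and Csf2rb2 (-0.46) in KO cells, and Csf2ra (-0.69) and Csf3r (-0.063) in WT cells. A further 10 that passed under neither scaling changed sign as well, in both media, among them Csf2rb2 for LPS in WT cells in low M-CSF (-0.43) and Csf1r for LPS in normal M-CSF (-0.18 in KO, -0.30 in WT cells).

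Counts of members called that moved by more than 1.5 times, or to or from 0, were as follows, without the share of all genes passing under each setting. They do not set the members apart from other genes. With the pairs summed, they were 0 for genotype in normal M-CSF with LPS, 1 for genotype in low M-CSF without LPS, 4 for the medium in WT cells with LPS, 0 for genotype by medium without and with LPS, 0 for genotype by LPS in normal M-CSF, and 1 in KO and 2 in WT cells for medium by LPS. With total-count scaling they were 4 for the medium in WT cells with LPS, 5 for LPS in KO cells in low M-CSF, 2 for genotype by medium with LPS and 1 for genotype by LPS in low M-CSF. Smaller moves included LPS in KO cells in normal M-CSF (5 against 7) and in WT cells in low M-CSF (4 against 5) with total-count scaling, and the medium in KO cells with LPS (6 against 8) with the pairs summed. With RLE size factors and with DESeq2, genotype by medium with LPS gave 2, adding Csf3r. Under both settings, genotype by LPS in low M-CSF gave 1, Csf2ra. DESeq2 gave 2 for genotype in normal M-CSF without LPS, with Csf2rb2 lower in KO cells (adjusted p = 0.029). Without the filter, genotype by LPS in low M-CSF gave 1, again Csf2ra. In fits of the compared groups only, counts were 3 for genotype in normal M-CSF with LPS, 3 for LPS in WT cells in low M-CSF, 2 for genotype by medium with LPS, and 1 each for genotype by LPS in low and in normal M-CSF. Leaving out 1 library gave 1 to 2 for genotype in normal and 2 to 4 in low M-CSF without LPS, 1 to 2 for genotype by medium with LPS, 1 to 2 for genotype by LPS in normal and 0 to 1 in low M-CSF. In that last test edgeR called 0 of 7 members (16% of all genes), with 2 at an unadjusted p under 0.05. Deviations of same-numbered libraries of different groups had correlations from -0.377 to 0.333. For LPS in WT cells in normal M-CSF, 3 of 4 pairs exceeded 0.1 (0.264, 0.333 and 0.103) and the fourth was at 0.093; elsewhere at most 2 did. The replicate block is therefore an alternative only. It left 1 call for genotype by LPS in normal M-CSF and lost 3 calls in all, Csf2 for the medium in WT cells with LPS (adjusted p = 0.053), Csf2ra for the medium in KO cells without LPS (0.060) and Csf2ra for genotype by LPS in normal M-CSF (0.050).

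Depth limits Csf2 and Csf3, which had at most 5 reads per library outside the groups with LPS in normal M-CSF, apart from Csf2 in low M-CSF with LPS.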
